A study of Brassica rapa subsp. pekinensis with 6 samples.

Results

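Leucine-rich repeat receptor kinases are the largest class of receptors on the surface of plant cells. The genes described here are those whose best protein match named an LRR receptor-like kinase or a leucine-rich repeat receptor, in Chinese cabbage (Brassica rapa subsp. pekinensis) leaves of different ploidy. The authors' deposited table holds 112 such genes among 13225. Of the 112, 106 were described by a Swiss-Prot match, 104 of these to an Arabidopsis protein and 2 to a rice protein, and 6 by the predicted Brassica rapa protein in the last column of the table. No row that matched the wording named brassinosteroid or its receptor BRI1, so none was left out. The 112 genes matched 52 different receptors, as several genes often had the same best match. Whether such genes are copies of that receptor was not tested.

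The study compared autotetraploid plants, which carry 4 genome copies, with doubled haploid plants, which carry 2. Both kinds were derived from 1 doubled haploid line, called FT, and were grown under shared conditions, so neither group differs from the other in strain or treatment. Mature leaves were taken at bolting, from the main stem under the first branch, and messenger RNA was sequenced in 3 biological replicates per group. The labels do not say how many plants a library holds or from how many plants of each ploidy the libraries came, and a line derived from 1 genotype cannot show how other cabbages respond.

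A leucine-rich repeat receptor kinase spans the cell membrane, with repeats outside the cell that bind a peptide or another molecule and a kinase inside it. Binding usually brings in a co-receptor of the SERK family, and the signal then passes to receptor-like cytoplasmic kinases, MAP kinase cascades and the oxidases that make reactive oxygen species. In leaves these receptors are known for sensing microbes and damage, for stomatal patterning and for growth.

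Each gene had 1 mean normalised read count per group in the authors' deposited table, with no error beside it. Changes are given from doubled haploid to autotetraploid leaves, so that a gene that rose was higher in autotetraploid leaves. Every listed gene had an adjusted p under 0.05 in the authors' test, and the listed genes were 37.8% of the 34980 that the authors tested. Receptor genes that did not pass that test were not analysed here, so a member that is listed had to differ, and its being listed is not a result about the receptors. Size factors, worked out from the smallest values, ran from 0.926 to 1.01 in autotetraploid and from 0.917 to 1.12 in doubled haploid libraries. Of 34 listed genes for the Rubisco small chain and chlorophyll-binding proteins, which mark green leaf, 25 had a mean of at least 1000 in both groups. Of these 34 leaf markers 30 rose, and by the authors' deposited table their means summed to 1081924 in autotetraploid leaves and 689720 in doubled haploid leaves. Markers of other tissue and of leaf age were also listed. They were chosen by their protein descriptions, and whether these genes are confined to such tissue was not tested. By the authors' deposited table, 1 of 8 flower and pollen genes rose and 7 fell, and their means summed to 999 in autotetraploid leaves and 1872 in doubled haploid leaves. The list written for root took in 2 genes matching ROOT HAIR DEFECTIVE 3 homologs, which many tissues express, so it does not mark root, and both fell, with sums of 658 and 1054 in that order. Of 31 vascular and lignin genes 16 rose and 15 fell, with sums of 14550 and 17415. Of 7 senescence genes 3 rose and 4 fell, with sums of 2311 and 11437. Among these markers 2 were at 0 in a group, both laccase 5 genes of the lignin list, which had no read in autotetraploid libraries and means of 27.2 and 14.8 in doubled haploid leaves by the authors' deposited table. Their part in the receptor results was not tested. In whole leaves, fewer cells of a type and less RNA per cell cannot be told apart.

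Of the 112 receptor genes, 62 rose and 50 fell in autotetraploid leaves, a share of 55.4% higher against 50.0% of all listed genes. At a change of at least 2-fold, 32 receptor genes rose and 21 fell. This was 28.6% higher and 18.8% lower, beside 16.6% higher and 23.0% lower among all listed genes. At 4-fold or more, 12 rose and 8 fell, with 5.57% of all listed genes higher and 10.2% lower by that much. The median log2 fold change, autotetraploid over doubled haploid, was 0.42 for the receptors and 0.16 for all listed genes. The latter is not a stable level, because listed genes split evenly by direction and few have changes near no change. For all listed genes other than the receptors it was -0.16. The direction depended on how genes with the same match were counted. With the most abundant match to each receptor alone, 23 of 52 rose, or 44.2%, and at 2-fold or more 9 rose and 12 fell. Without the 29 matches to the 3 most frequent receptors, 44 of 83 rose, or 53.0%. Of the 28 receptors matched by 1 gene, 12 rose and 16 fell.

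**Figure D1:**
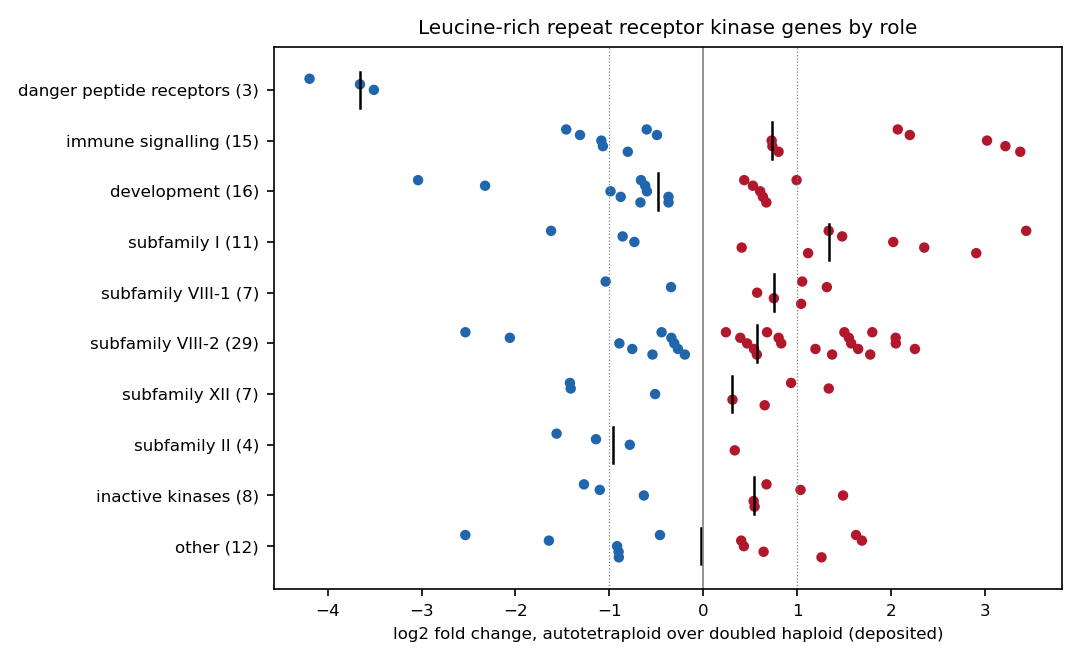
Each point is the log2 fold change (autotetraploid over doubled haploid, from the authors' deposited table) of 1 receptor gene, in rows by role or Arabidopsis subfamily with the number of genes in brackets. Red points are higher and blue points lower in autotetraploid leaves, black bars are medians and dotted lines mark a 2-fold change. The 3 danger peptide receptors sit between -4.19 and -3.51, while subfamily I has its median at 1.34.

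The receptors of danger peptides held the 3 largest falls among the 112 receptor genes. This role was set apart after the values were seen, so its place among the roles is not a result. In Arabidopsis, PEPR1 and PEPR2 bind elicitor peptides that damaged or infected cells release, and start a defence response. The gene matching PEPR1 (BraA07002967, all such identifiers carrying the prefix evm.TU. in the files) had a mean of 47.0 in autotetraploid leaves and 860 in doubled haploid leaves by the authors' deposited table. Its 3 autotetraploid libraries, worked out from that mean, held 44.3, 45.4 and 51.4 normalised reads. These lay close together, and all were far under the doubled haploid mean. The log2 fold change in the authors' deposited table was -4.19, with an adjusted p of 2.90e-204.

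The PEPR2 match BraA06001388 fell from 2095 to 184 by the authors' deposited table, with a log2 fold change of -3.51 with an adjusted p of 5.29e-244. Its neighbour BraA06001389, also matching PEPR2, fell from 1803 to 143 by the authors' deposited table, with a log2 fold change of -3.66 with an adjusted p of 2.20e-274. The identifiers of these PEPR2 genes follow each other, and whether near-identical copies share reads was not tested. Ordered by p over all 13225 listed genes, these 3 receptors stood at places 132, 163 and 241. No other receptor gene fell as far in the authors' deposited table, and the next largest fall was that of the stomatal receptor ERL1.

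The genes through which such receptors signal were described by whole lists, which serve many receptors and not the danger peptide receptors alone. The gene for elicitor peptide 1, a ligand of PEPR1 and PEPR2 in Arabidopsis (BraA06003499), had a mean of 95.3 in autotetraploid leaves and 464 in doubled haploid leaves by the authors' deposited table. Its autotetraploid libraries held 81.0, 120 and 85.0 normalised reads, all under that doubled haploid mean. It was the only gene with that match in the list of peptide ligands.

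The co-receptor list held 3 SERK genes, of which 1 rose and 2 fell. SERK4, a co-receptor of several immune receptors in Arabidopsis, fell from 896 to 279 for BraA03004506 and from 2152 to 1747 for BraA02003574 by the authors' deposited table. SERK2 (BraA10002167) rose from 2718 to 3500 by the authors' deposited table, with a log2 fold change of 0.36. The co-receptors thus did not share a direction.

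Of 12 receptor-like cytoplasmic kinase genes, which receptors phosphorylate, 11 fell and 1 rose, with a median log2 fold change of -1.30. Of all listed genes 50.0% fell. BIK1, which PEPR1 phosphorylates in Arabidopsis, had 3 matches, and all of them fell. The largest of these falls was that of BraA03002204, whose autotetraploid libraries held 69.1, 60.5 and 63.2 normalised reads. The doubled haploid mean of that gene was 374 in the authors' deposited table. BraA05003759 fell from 607 to 134 and BraA04001193 from 271 to 206 by the authors' deposited table. Among the falls of the list, the smallest adjusted p was that of a gene matching protein kinase 2A (BraA06001706), which fell from 871 to 209 by the authors' deposited table. The 1 gene that rose matched PBS1, a kinase guarded by a resistance protein in Arabidopsis (BraA09003672, from 106 to 146 by the authors' deposited table).

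In the MAP kinase cascade 18 of 27 genes fell and 9 rose, and 11 of the falls but 1 of the rises reached 2-fold. By that much 40.7% fell and 3.70% rose, beside 23.0% and 16.6% of all listed genes. MAP kinase 3, an immune kinase activated by many of these receptors (BraA08002427), fell from 10836 to 3024 by the authors' deposited table. A match to MAP kinase kinase kinase 1 (BraA06001827) rose from 82.0 to 415 by the authors' deposited table. Further matches to that kinase fell, BraA03002810 from 1536 to 849 and BraA09005066 from 1036 to 458 by the authors' deposited table. Of 6 respiratory burst oxidase genes, 4 fell and 2 rose. RBOHD, the oxidase behind the immune oxidative burst in Arabidopsis leaves, fell from 8235 to 1203 for BraA06002707 and from 17389 to 4498 for BraA02003866 by the authors' deposited table. A gene matching oxidase G (BraA03005567) rose from 9.91 to 106 by the authors' deposited table. Another match to oxidase G (BraA03005564) fell from 479 to 37.8 by the authors' deposited table.

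**Figure D2:**
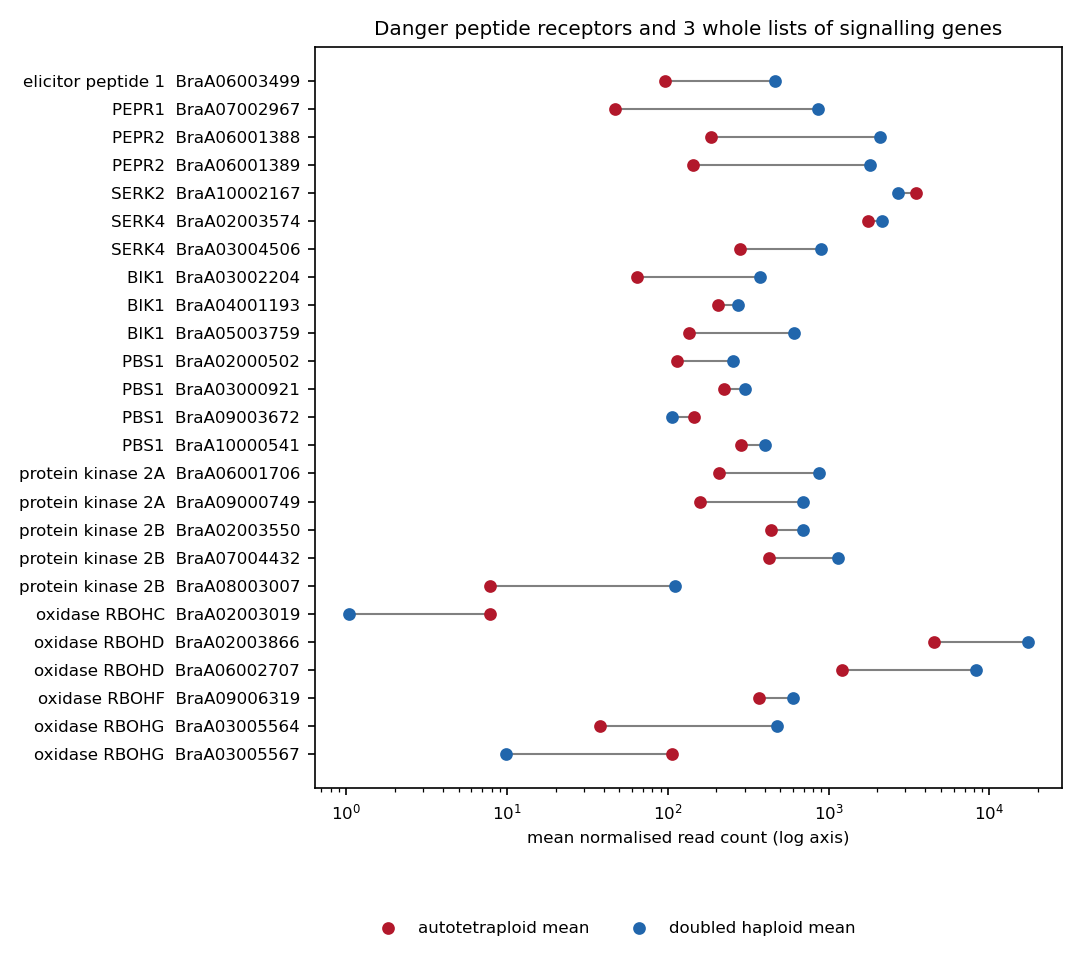
Mean normalised read counts (log axis, from the authors' deposited table, without error) of elicitor peptide 1, the danger peptide receptors and every listed gene of the SERK, receptor-like cytoplasmic kinase and oxidase lists, red for autotetraploid and blue for doubled haploid leaves. SERK2, a PBS1 match and the matches to oxidases C and G (BraA03005567) have higher autotetraploid means, and PEPR1 has the widest gap, from 47.0 to 860.

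The other receptors placed under immune signalling, 15 genes, were split into 8 rises and 7 falls. Receptors with a part in immunity that are given by subfamily below, such as the At3g14840 matches, are not among them. SOBIR1, the kinase that receptor-like proteins without a kinase of their own depend on in Arabidopsis, had 3 matches, and all of them fell. BraA03001787 fell from 13400 to 6320 by the authors' deposited table, with a log2 fold change of -1.08. BraA04002377 and its neighbour BraA04002378 fell less, from 12249 to 8712 and from 5589 to 3685 by the authors' deposited table. The receptor-like proteins themselves went the other way more often. Of 24 genes, nearly all matching receptor-like protein 12, 18 rose and 6 fell, with a median log2 fold change of 1.42. At least 2-fold were 13 rises and 3 falls, or 54.2% and 12.5%, beside 16.6% and 23.0% of all listed genes. Novel00511 rose from 383 to 2678 and Novel00665 fell from 1692 to 716 by the authors' deposited table.

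At4g08850, known in Arabidopsis as MIK2, a receptor of the SCOOP peptides, had 3 matches and all rose. BraA05001895 rose from 2099 to 8832 by the authors' deposited table, with a log2 fold change of 2.07 with an adjusted p of 3.14e-210, the smallest of any receptor gene that rose. BraA03002824 rose from 1393 to 2323 by the authors' deposited table. BraA06003237 had doubled haploid libraries of 101, 104 and 127 normalised reads, all under its autotetraploid mean of 194 by the authors' deposited table. The matches to MIK2 and to PEPR1 and PEPR2, all receptors of plant peptides with a part in defence, thus moved in opposite directions.

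At5g48380, known as BIR1, holds back cell death and immune signalling in Arabidopsis. Of its 5 matches, 3 rose and 2 fell. BraA02003892 fell from 4074 to 1482 by the authors' deposited table, with an adjusted p of 2.40e-94, the smallest among receptors that fell and are known by a locus code. BraA06002738 fell from 5000 to 2866 by the authors' deposited table. The other matches had low counts in doubled haploid leaves and rose. BraA02000722 held 109, 104 and 110 normalised reads in the autotetraploid libraries and 22.9, 20.3 and 26.9 in the doubled haploid libraries. All 3 autotetraploid libraries were above all doubled haploid libraries, with an adjusted p of 3.43e-16 by the authors' deposited table. BraA03000808 had doubled haploid libraries of 28.3, 25.0 and 17.9 against an autotetraploid mean of 193 by the authors' deposited table. Its neighbour BraA03000809 held 7.56, 4.03 and 6.92 normalised reads in autotetraploid and 1.09, 0 and 0.896 in doubled haploid libraries. With 18 reads against 2, its ratio was 9.32, within a 95% counting interval from 2.29 to 85.0.

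At1g74360, known as NILR1 from immunity to nematodes in Arabidopsis, had 2 matches that rose and 2 that fell. BraA07004056 fell from 2786 to 1329 by the authors' deposited table, with an adjusted p of 1.34e-47. BraA02001596 rested on few reads, with 20.5, 8.07 and 9.88 normalised reads in autotetraploid and 0, 3.70 and 0 in doubled haploid libraries. With 37 reads against 4, the ratio was 10.4, within a 95% counting interval from 3.53 to 38.0.

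Receptors of development, 16 genes, were lower in 10 cases and higher in 6, and most of their changes were under 2-fold. This role too was set apart after the values were seen, so its counts are not a result about developmental receptors. None of the 16 genes rose by 2-fold and 2 fell by that much. Thus 12.5% passed 2-fold either way, beside 39.6% of all listed genes. One of the 2 was ERL1, a receptor kinase that spaces stomata in Arabidopsis (BraA06003774). Its autotetraploid libraries held 7.56, 3.02 and 3.95 normalised reads and its doubled haploid libraries 43.6, 41.6 and 34.1. The groups were far apart, and the log2 fold change in the authors' deposited table was -3.04 with an adjusted p of 1.76e-09. The gene for EPIDERMAL PATTERNING FACTOR 1, a peptide that ERL1 binds in Arabidopsis (BraA09001116), was higher, with 20.5, 14.1 and 23.7 normalised reads in autotetraploid and 7.63, 9.25 and 6.27 in doubled haploid libraries. A further gene of the peptide ligand list, matching EPIDERMAL PATTERNING FACTOR-like protein 9 (BraA08000291), fell from 243 to 184 by the authors' deposited table. The other developmental receptor with a large fall was GSO1, needed for the embryonic cuticle and the root diffusion barrier in Arabidopsis. BraA05000164 fell from 870 to 174 by the authors' deposited table, and a further GSO1 match, BraA07002830, fell from 239 to 156.

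Receptors of CLE peptides, which regulate stem cells and vascular tissue, did not share a direction. BAM2 (BraA03004767) rose from 306 to 467 and BAM3, a receptor in developing phloem (BraA03005253), from 76.8 to 122 by the authors' deposited table. The BAM3 libraries held 99.3, 153 and 115 normalised reads in autotetraploid and 85.0, 60.1 and 85.1 in doubled haploid leaves, close to each other but not overlapping. CORYNE, a partner in CLAVATA signalling (BraA10000527), was lower, with 34.6, 42.3 and 40.5 normalised reads in autotetraploid and 89.4, 59.2 and 67.2 in doubled haploid libraries. PXL2, a relative of the cambium receptor PXY (BraA01000955), fell from 115 to 72.5 by the authors' deposited table. RPK2, which acts in meristems and anthers (BraA01004727 and BraA03003273), had a fall from 601 to 378 and a rise from 81.6 to 118 by the authors' deposited table, the rise with an adjusted p of 0.0491.

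The remaining developmental receptors had changes under 2-fold. MSP1, known from rice anthers, had a match that rose from 128 to 255 (BraA05002200) and another that fell from 695 to 538 (BraA03004704) in the authors' deposited table. FEI 2, a kinase of cell wall synthesis in Arabidopsis roots (BraA04002864), fell from 851 to 659, and IRK, a root receptor (BraA09002884), from 114 to 75.3 by the authors' deposited table. At4g26540, a receptor of root meristem growth factors in Arabidopsis, had 1 match that rose and 1 that fell. MDIS1, a pollen tube receptor (At5g45840, BraA10001850), rose from 361 to 561 by the authors' deposited table. Over the list of peptide ligands, 11 of 21 genes rose and 10 fell. The ligand gene with the smallest adjusted p among rises matched root meristem growth factor 9 (BraA02004444, from 534 to 1337 by the authors' deposited table).

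Members of subfamily I, whose extracellular part also carries a malectin-like domain, rose in 8 of 11 cases, with 7 rises and 1 fall of at least 2-fold. By that much 63.6% rose and 9.09% fell, beside 16.6% and 23.0% of all listed genes. Most have no known function. The largest rise of all receptor genes was in this group, for a match to At5g59680 (BraA10001953). Its doubled haploid libraries held 16.3, 9.25 and 25.1 normalised reads against an autotetraploid mean of 184 by the authors' deposited table, with a log2 fold change of 3.44 with an adjusted p of 1.30e-45. A further match to At5g59680 (BraA02001193) held 83.1, 118 and 106 normalised reads in autotetraploid and 21.8, 16.6 and 21.5 in doubled haploid libraries. All autotetraploid libraries of that gene were above all doubled haploid ones. At1g51860 had 3 matches, all of which rose. Their identifiers are neighbours on A05, and neighbours with the same match often shared a direction among all listed genes too. BraA05000850 rose from 17.6 to 133 by the authors' deposited table, with doubled haploid libraries of 6.54, 22.2 and 24.2. PAM74 (BraA10001955) went the other way, with 29.2, 31.3 and 16.8 normalised reads in autotetraploid and 80.7, 80.4 and 76.2 in doubled haploid libraries.

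Subfamily VIII-2, which also carries a malectin domain, was the largest group with 29 genes, of which 19 rose and 10 fell. At 2-fold or more, 11 rose and 2 fell. This was 37.9% higher and 6.90% lower, beside 16.6% and 23.0% of all listed genes. At1g29720 alone had 12 matches, 10 of them higher, and At1g56130 had 10, of which 4 rose and 6 fell. At1g56130 thus had matches moving far in either direction. BraA06001484 held 41.0, 38.3 and 42.5 normalised reads in autotetraploid and 239, 239 and 227 in doubled haploid libraries, a log2 fold change of -2.53 in the authors' deposited table. BraA06000382 rose from 72.6 to 301 by the authors' deposited table. Libraries of the same group differed in some of these genes. BraA07001964, a match to At1g29720, held 48.0, 18.5 and 211 normalised reads in the 3 doubled haploid libraries, a coefficient of variation of 112%. The next highest coefficient among members with a doubled haploid mean of at least 20 was 43.4%. Its autotetraploid mean was 322 in the authors' deposited table, above all 3 doubled haploid libraries, with an adjusted p of 0.00746.

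At3g14840, known in Arabidopsis as LIK1, a partner of the chitin receptor CERK1, had 3 matches that rose and 1 that fell. BraA05002434 rose from 561 to 1926 by the authors' deposited table, with an adjusted p of 1.21e-101, and its neighbour BraA05002435 rose from 1121 to 3522. BraA05002426, close to both, held 17.3, 20.2 and 12.8 normalised reads in autotetraploid and 3.27, 2.77 and 4.48 in doubled haploid libraries. The match that fell, BraA01004017, changed little, from 4990 to 4361 by the authors' deposited table.

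The other subfamilies were small. Subfamily VIII-1 had 5 rises and 2 falls among 7 genes, including 3 matches to At5g49770 that all rose. Subfamily XII, to which the flagellin receptor FLS2 belongs in Arabidopsis, was represented by 7 matches to At3g47570, of which 4 rose and 3 fell. Subfamily II, which includes the SERK co-receptors, had 1 rise and 3 falls among its 4 genes. The largest of these falls was that of At4g30520, a receptor-like kinase associated with leaf senescence in Arabidopsis (BraA03005965). It held 73.4, 102 and 116 normalised reads in autotetraploid and 278, 273 and 307 in doubled haploid libraries, with a log2 fold change of -1.56 in the authors' deposited table. Among the 7 senescence markers the widest difference was that of a match to the senescence protease SAG12 (BraA06000198), at 4.86 in autotetraploid leaves and 4804 in doubled haploid leaves by the authors' deposited table. The other SAG12 matches rose, at lower counts. By the authors' deposited table BraA06000730 rose from 13.5 to 48.8, BraA06003852 from 45.3 to 81.4 and BraA07001815 from 9.27 to 53.3. The part of senescence in the fall of the At4g30520 match was not tested.

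A group of 12 receptors in no subfamily or role above held 6 rises and 6 falls. At4g20940, known as GHR1 from stomatal closure in Arabidopsis (BraA07001797), held 120, 103 and 126 normalised reads in autotetraploid and 51.2, 40.7 and 53.8 in doubled haploid libraries. The groups did not overlap, and the rise stood opposite the fall of ERL1, the other receptor here with a role in stomata. At4g36180 (BraA01000261) held 5.40, 4.03 and 10.9 normalised reads in autotetraploid and 51.2, 27.7 and 38.5 in doubled haploid libraries. At1g17230 (BraA06003015) fell from 57.7 to 18.5 and RKF3, a kinase first found in flowers (BraA03001997), from 629 to 333 by the authors' deposited table. The last 8 genes matched kinases worded as inactive, which lack residues needed for catalysis, and 5 of them rose and 3 fell. With the BIR1 and CORYNE matches given above, which carry the same wording, this made 14 genes with 8 rises and 6 falls.

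Values per library could be worked out in both groups for the 19 receptor genes with both means under 100. In all 19 the libraries of the groups did not overlap. This was so in 99.1% of the 2590 listed genes with such means, because a gene had to differ to be listed. limma called all 19 at an adjusted p under 0.05, and 100% of the 2590. For ERL1 its log2 difference on the scale of normalised reads plus 1 was -2.87 with a standard error of 0.36, and for the At1g29720 match BraA07001318 it was -2.02 with a standard error of 0.20. Among 63 receptor genes with a doubled haploid mean under 300, the autotetraploid mean lay outside the range of the doubled haploid libraries in 63, as in 100% of all listed genes at that level. The median coefficient of variation over the doubled haploid libraries was 12.7% for receptor genes and 11.0% for all listed genes.

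**Figure D3:**
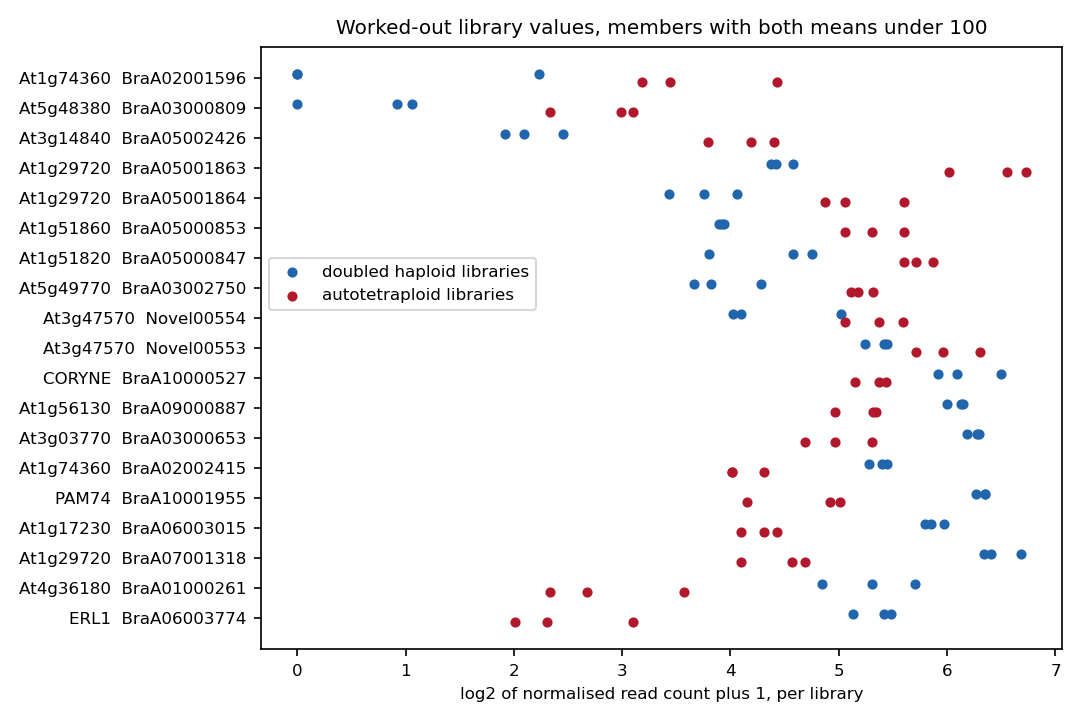
Normalised read counts per library (log2 of the value plus 1) of the 19 receptor genes with both means under 100, worked out from the group means, 3 points per group, red for autotetraploid and blue for doubled haploid. The groups do not overlap in any row, and the narrowest gap is in Novel00554, with 32.4 as the lowest autotetraploid and 31.4 as the highest doubled haploid value.

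Members with neighbouring identifiers often moved together. By identifier numbers at most 10 apart, 34 receptor genes formed 14 runs, of which 6 rose throughout, 4 fell throughout and 4 held both directions. In 17 pairs of neighbours with the same match, 14 shared a direction, or 82.4%. That was also the share among all listed neighbours with the same match, 252 of 306, while 54.9% of all consecutive listed genes shared a direction. The longest run with 1 direction lay on A05 and held 4 genes of subfamily I, with log2 fold changes of 1.34, 2.91, 2.03 and 1.48 in the authors' deposited table. A run of 5 matches to At1g29720 on A07 was mixed: its log2 fold changes in the authors' deposited table were 1.58, 0.57, -2.06, 0.40 and 1.37. The fall in its middle was that of BraA07001318, which held 24.8, 16.1 and 22.7 normalised reads in autotetraploid and 83.9, 102 and 79.8 in doubled haploid libraries. On A10 the gene with the largest rise, BraA10001953, stood beside PAM74, which fell by 1.62 on the log2 scale in the authors' deposited table.

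**Figure D4:**
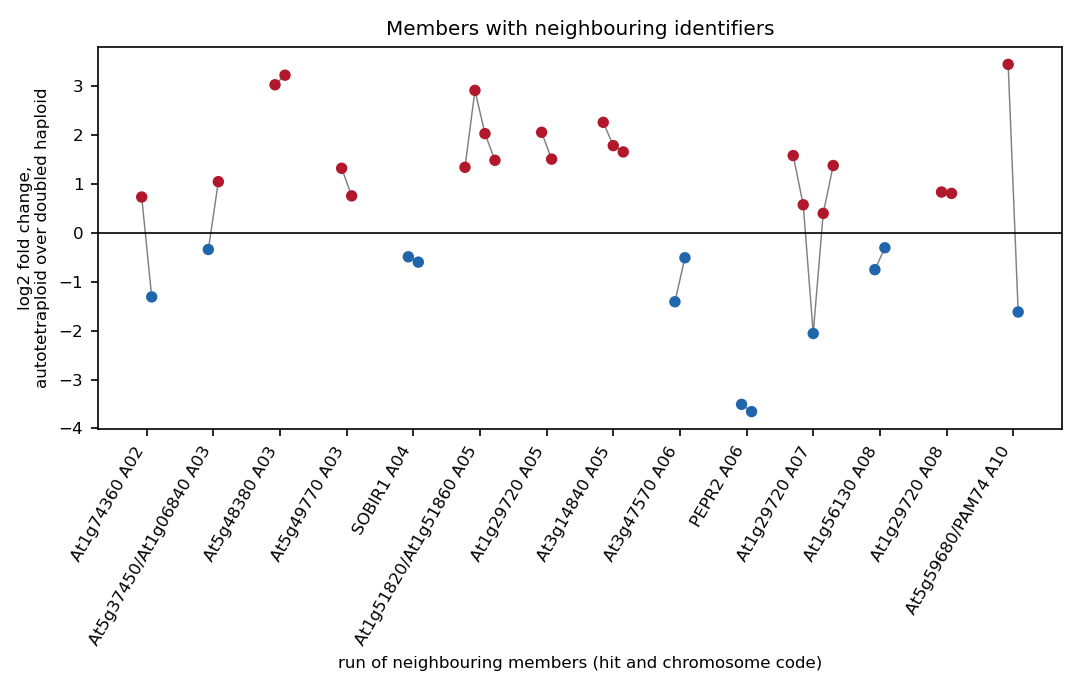
Log2 fold changes (autotetraploid over doubled haploid, from the authors' deposited table) of 34 receptor genes in 14 runs of neighbouring identifiers, named by match and chromosome code, with lines joining the genes of a run in order. Red points are higher and blue points lower in autotetraploid leaves, and the widest step is on A10, from 3.44 to -1.62.

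Identifiers carry a chromosome code. All 5 receptor genes with the code A01 fell, among them PXL2, RPK2 (BraA01004727) and the match to At4g36180, and of all 1284 listed A01 genes 27.9% rose. Without A01, 62 of 107 receptor genes rose, or 57.9%, beside 52.4% of all listed genes without A01. The other codes with at least 5 receptor genes held both directions, from 1 of 6 higher on A04 to 11 of 14 higher on A05. The identifiers could not be placed on a genome here.

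Receptors of the same class under other names fell more often than they rose. A list of 34 genes, which the wording used for the 112 genes does not take in, held 7 rises and 27 falls. Its median log2 fold change was -0.77. The list covers HSL1, HAIKU2, TMK and STRUBBELIG kinases, among others, and several matches worded as inactive receptor kinases. It included 2 matches to cysteine-rich kinases, which have no leucine-rich repeats and which both rose. Without them 5 of 32 rose. HSL1, a peptide receptor related to the abscission receptor HAESA (BraA06003018), fell from 2403 to 401 by the authors' deposited table. The gene of this list with the smallest adjusted p among rises, Novel00451, was a cysteine-rich match, from 413 to 1101 by the authors' deposited table. Together with the 112 genes this made 144, of which 67 rose and 77 fell, or 46.5% higher, with 34 rises and 34 falls of at least 2-fold. Of all listed genes 16.6% rose and 23.0% fell by that much. The share of receptors that rose thus depended on which names were counted. Of 3 genes whose proteins limit receptor levels or signalling, 2 U-box ligase genes rose and a phosphatase gene fell. U-box protein 13 (BraA06000995) rose from 915 to 1283 and phosphatase 2C 66 (BraA10001343) fell from 46.4 to 27.2 by the authors' deposited table.

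**Figure D5:**
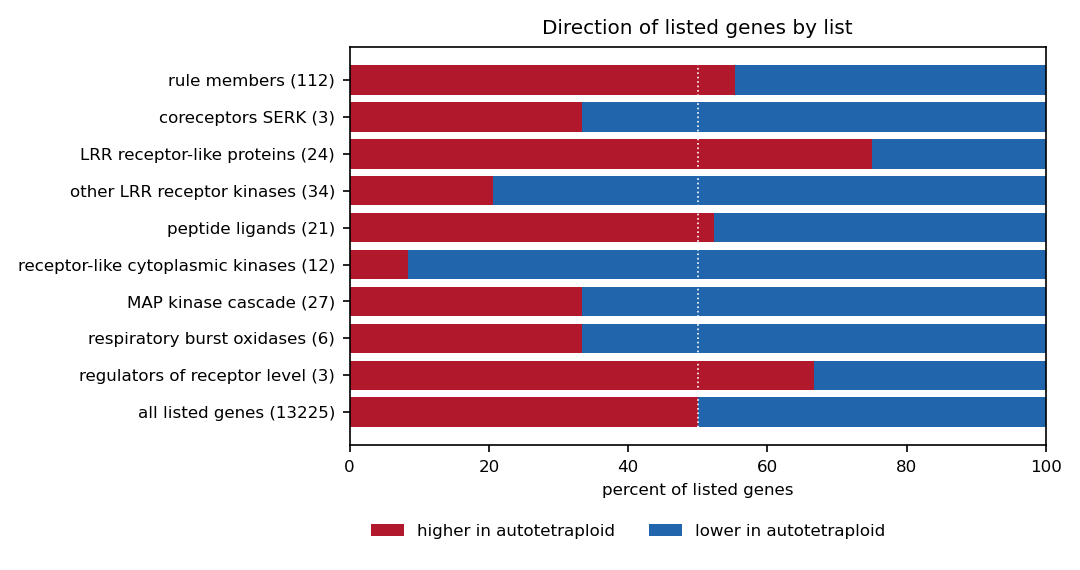
Percent of listed genes that were higher (red) or lower (blue) in autotetraploid leaves, by list, with the number of genes in brackets and a dotted line at 50.0 percent. The bar called rule members is the 112 receptor genes with 55.4% higher, the list of other LRR receptor kinases has 20.6% higher, and all listed genes stand at 50.0%.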

How the data were processed

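RNA from 6 leaf libraries, 3 per ploidy, was sequenced. The submitters' processing notes name DESeq 1.18.0, HTSeq 0.6.1, TopHat2 2.0.12 and Bowtie2 2.2.3. The build, the annotation, the strand setting and the read totals are not given in the sources used here. Per the file headers, the signal columns of the table the authors deposited are read counts. Judging by their values they are group means of normalised counts, although the labels speak of FPKM. The deposited log2 column is the log2 ratio of these means, to within 5e-05. The deposited p-value columns come from the authors' test, and the largest adjusted p is 0.049996. Adjusted p times rank, divided by p, was nearly constant and gave 34980 tested genes.

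Each mean is a sum of whole reads over size factors. Working back from it gave the size factors and each library's reads, and 3385 of 3385 autotetraploid and 3280 of 3280 doubled haploid means above 0 and under 100 had exactly 1 solution. Doubled haploid means had 1 solution up to 300. Above these limits a library value is printed only where it was the 1 solution. A recovered library has no replicate number. The limma package (3.58.1, R 4.3.3) was applied to log2 of the normalised count plus 1 over 2590 genes with both means under 100, with Benjamini-Hochberg adjustment. Ratios of few reads have exact 95% counting intervals, which cover counting error only. On simulated data of weakly expressed genes, 100% of 5066 means were recovered, and limma called 90.5% of 95 4-fold changes and 0% of 2382 unchanged genes. The size factors were given in that simulation, and most of its genes were unchanged, whereas every listed gene had passed a test. It thus does not check the size factors or the limma calls made here. Scripts used matplotlib 3.10.9, numba 0.67.0, SciPy 1.17.1, NumPy 2.4.6, pandas 2.3.3 and Python 3.11.15.

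The members and the gene lists were chosen with earlier results of these data known, so no list gives independent support. Named genes were all members matching a receptor with a given name, the 5 largest rises and 5 largest falls of the others with a mean of at least 20, the 2 smallest adjusted p in each direction, and the smallest adjusted p in each direction of each list. Other genes named, the roles and the subfamilies were chosen after the values were seen, and roles and subfamilies are those of the Arabidopsis or rice match. No identifier was found in the reference gene table. Copies that are nearly identical may share reads.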

Additional observations from a re-analysis of the deposited data

How the results depend on the processing

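The share of receptor genes that rose, 55.4%, fell to 44.2% with 1 gene per protein match, where falls were more frequent. It stayed within its 95% binomial interval under the other settings run: an adjusted p limit of 0.001, a minimum mean of 20 or 100, Arabidopsis matches, 1 gene per run of neighbours, no A01 genes, no inactive kinases and, added after the data were seen, no matches to the 3 most frequent receptors. That interval takes genes as independent, although 84 receptor genes share their match with another. The settings also keep subsets of the same genes, so staying within the interval is a weak check. Keeping rows that name BRI1 could change nothing, since none had been left out. The share changed at least 2-fold, 47.3%, was 57.3% at an adjusted p limit of 0.001, 75.9% at 1.5-fold and 17.9% at 4-fold, as a stricter p or another fold limit keeps other genes. limma called 19 of 19 receptor genes at every pseudocount and minimum mean tried, 19 to 19 when each library was left out in turn, and 33 of 33 when, by a choice made after the data were seen, all genes with exactly 1 solution entered. Over 190 pairs of gene and setting 0 changed direction or lost the call, but genes chosen by having passed a test make this a weak check. For the other gene lists 8 of 72 shares moved beyond their interval. The count models planned as further alternatives were not run, because the table holds group means and not counts per library. No paired analysis was possible because the deposited columns are group means and the recovered libraries carry no replicate number. The means have no error, genes that failed the authors' test were not analysed here, and changes of listed genes tend to be larger at low counts: at a mean under 100 the median change of listed genes was 3.23-fold, and at a mean of at least 1000 it was 1.61-fold.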

Other observations

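The marker lists of other tissue held large changes of single genes. A pollen-specific leucine-rich repeat extensin gene, which shares the repeats but not the kinase of the receptors (BraA08001376), fell from 359 to 20.8 by the authors' deposited table, while another match to the same protein (BraA03006256) rose from 132 to 196. In the vascular and lignin list, a phloem protein 2-like gene (BraA01001190) fell from 4028 to 994 and a probable cinnamyl alcohol dehydrogenase gene (BraA06004957) rose from 213 to 762 by the authors' deposited table. A match to a ROOT HAIR DEFECTIVE 3 homolog, BraA06004447, fell from 1020.2 to 648 by the authors' deposited table. Among the senescence genes a further match to SAG12 (BraA07001815) rose from 9.27 to 53.3 by the authors' deposited table.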
